A study of Drosophila melanogaster with 2 samples.

Results

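The Sin3A peaks examined were those in the windows of chromosome arms 2L, 3L and 3R that face the centromere, on the small chromosome 4, and on the heterochromatic sequences (names ending in Het) other than XHet. They were chosen by position alone. A peak was a member if its start lay at or beyond 19.5 Mb on 2L, at or beyond 20.5 Mb on 3L, or before 3.5 Mb on 3R, or if it lay anywhere on 4, 2LHet, 2RHet, 3LHet or 3RHet. This gave 323 of the 4046 peaks in the list (7.98%, 95% exact binomial interval 7.17 to 8.86). The 2L window held 86 of them, the 3L window 82, the 3R window 125, chromosome 4 held 26 and the Het sequences held 4. The remaining 2173 peaks of 2L, 3L and 3R served as the reference.

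The list came from a ChIP-seq experiment on untreated embryos of Drosophila melanogaster, aged between 0 and 12 h. The ChIP sample joined replicates 1 and 2, and its antibody against Sin3A is credited to Ross Cagan/Proteintech. Per the labels, embryos came from iso1 (y; bw cn sp) flies or from transgenic lines; which of them gave this sample is not stated, and the antibody is named for the protein itself and not for a tag. An input sample of the same stage exists and was not analysed here. Embryos were used whole, so a peak is an average over all cell types and over the stages of that interval.

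Sin3A is the scaffold of a corepressor complex that brings the histone deacetylase Rpd3 (HDAC1) to chromatin and is found mostly near the starts of genes. The chromosome regions around Drosophila centromeres are packaged as heterochromatin, rich in repeated sequence, methylated on histone H3 lysine 9 and bound by HP1. Chromosome 4 carries the same marks over much of its length, yet it also holds ordinary expressed genes, and a protein of its own, POF, binds along it. In the BDGP5 build the high-numbered ends of 2L and 3L and the low-numbered end of 3R face the centromere, and the Het sequences are heterochromatic scaffolds assigned to an arm but not joined to it. The peak list has no chromatin mark, so the names pericentromeric and heterochromatic rest on position and sequence name and could not be checked against the data.

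Each peak had a start, an end and the authors' score, whose scale the file does not name. The score is used here to rank and compare peaks of this one list. Both replicates were joined, so no peak has a replicate error, read depth is unknown, and peaks of one list are not replicates of a condition. The comparisons are therefore descriptions without p-values. Intervals are 95% exact binomial, Poisson or order-statistic intervals over peaks, cover counting error only, and are too narrow wherever neighbouring peaks depend on each other.

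The classes of members differed from one another. The 293 peaks of the 3 windows covered much of the reference's range of score and width, with somewhat lower medians and differences between the arms. Most of the 26 peaks of chromosome 4 had low scores and small widths, with 3 of them at or above the list median score. The 4 Het peaks are described singly. Scores in the windows had a median of 251 (interval 220 to 287), against 271 in the reference (254 to 289) and 89.3 on chromosome 4 (68.7 to 150). Widths had a median of 951 bp in the windows (892 to 997), 1024 bp in the reference (995 to 1049) and 436 bp on chromosome 4 (401 to 546).

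Counts past fixed points of the list were as follows. A score of at least the list median, 269.74, was found for 50.6% of the 3723 peaks outside the members. It was reached by 135 of the 293 window peaks (46.1%, interval 40.3 to 52.0), by 3 of 26 on chromosome 4 (11.5%, 2.45 to 30.2) and by 1 of 4 Het peaks. The upper quartile of the list, a score of 546, was reached by 25.4% of the peaks outside the members. In the windows 65 did (22.2%, interval 17.6 to 27.4), and on chromosome 4 none of 26 did, which allows a share of up to 13.2% by the exact interval. Over all 323 members there were 139 peaks at or above the list median (43.0%), a share that mixes these unlike classes.

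Strong Sin3A peaks were present in all 3 windows, though not in their innermost parts on 2L and 3L. Counting as strongest the 10% of the list with the highest scores (at least 884) took in 24 members, all of them in the windows: 12 on 3R, 7 on 3L and 5 on 2L. That is 8.19% of the window peaks (interval 5.32 to 11.9), with 10.2% in the reference (8.93 to 11.5) and 10.2% among all peaks outside the members. A score of 1000 was exceeded by 16 members. The highest score among them, 1566.22 (rank 54 in the list), was that of a 1447 bp peak on 3R, at 2892366 to 2893812. A 1520 bp peak on 3L at 21168426 to 21169945 came next with 1546.50 (rank 57). The strongest peak of the 2L window, with a score of 1241.87 and rank 147, spanned 19507973 to 19509236, directly inside the boundary and thus on the far side of the window from the centromere. Past 22 Mb on 2L the highest score was 361.66, and past 23 Mb on 3L it was 105.13.

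The density of peaks was examined over the span of each window, counted from the boundary to the peak nearest the centromere. The lengths of the arms were not used here, so any peak-free sequence beyond that peak is left out, and the densities and ratios of the windows are upper values, which cannot show that the windows held as many peaks per Mb as the rest of their arms. Counted in this way, the 3 windows together had 30.8 peaks per Mb over 9.52 Mb (interval 27.3 to 34.5) and the reference 33.8 (32.4 to 35.3), a ratio of 0.910 (interval 0.803 to 1.03). On 3R the window had 35.9 peaks per Mb and the rest of the arm 35.5, a ratio of 1.01 (0.833 to 1.22). On 2L the values were 28.9 and 31.7, a ratio of 0.914 (0.721 to 1.15). The 3L window had 26.7 against 33.8, a ratio of 0.788, and its interval of 0.619 to 0.992 ended just below 1. Chromosome 4 had 22.2 peaks per Mb between its first and last peak (14.5 to 32.5), a ratio to the reference of 0.657 (0.428 to 0.965). Sequence outside those 2 peaks is left out, so this density is an upper value too.

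**Figure D1:**
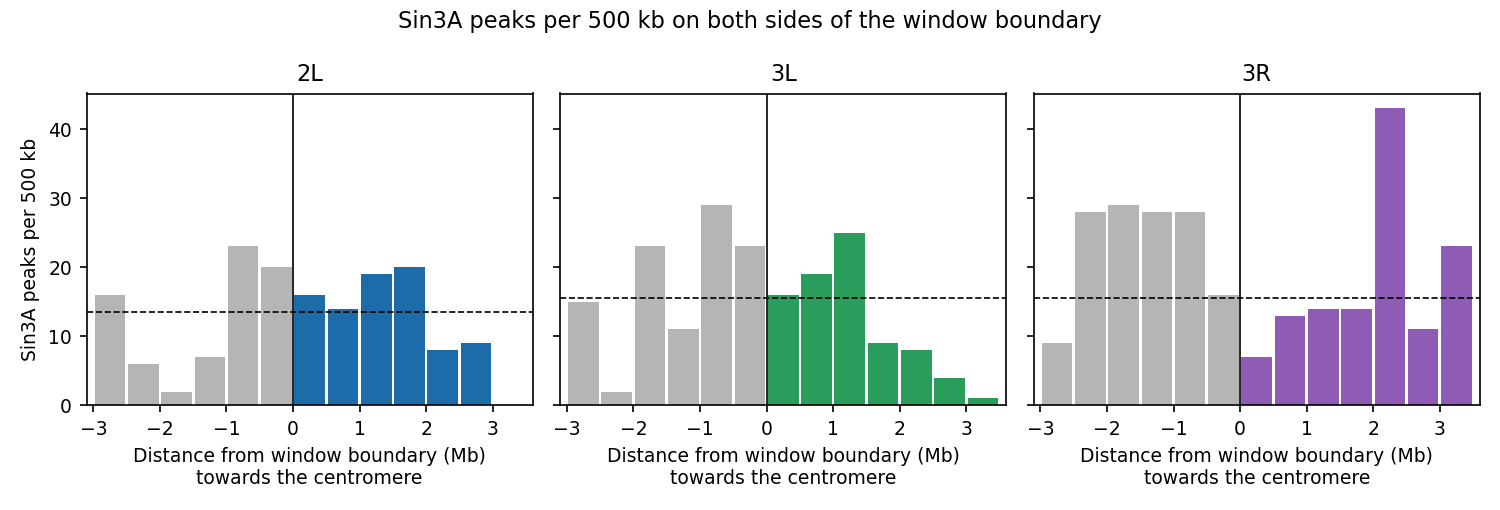
Number of Sin3A peaks (vertical axis) in bins of 500 kb by distance from the window boundary in Mb (horizontal axis, positive towards the centromere) on 2L, 3L and 3R. Coloured bars are bins of the windows, grey bars are reference bins, and the dashed line is the median of the complete reference bins of the arm (13.5, 15.5 and 15.5). Bins beyond the one with the innermost peak are not drawn. Counts fall to 4 and 1 at the centromere side of 3L, while 3R reaches 43 in one bin and 23 in the last.

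The 3 windows differed along their length. In 500 kb bins from the boundary inwards, the 3L window held 16, 19, 25, 9, 8, 4 and 1 peaks. All peaks of a bin were counted, and bins were listed as far as the one with the innermost peak. Any empty bins beyond it on 3L or 2L are left out. The 2L window held 16, 14, 19, 20, 8 and 9. The 3R window held 7, 13, 14, 14, 43, 11 and 23, with the highest count between 1.0 and 1.5 Mb. Over the 126 complete bins of the reference the median was 15 peaks and the range 0 to 41, so the count of 43 on 3R lay above every reference bin, and counts of 8 or fewer were found in 18 of the 126.

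On 3L, both the number and the strength of peaks were low at the centromere side. The 5 peaks past 23 Mb had scores of 56.03, 53.85, 105.13, 79.54 and 65.35 in order along the arm, and widths of 381, 310, 572, 704 and 359 bp. All 5 lay under the lower quartiles of the list for score (127) and for width (738 bp). The 77 other peaks of the 3L window had a median score of 267 and a median width of 939 bp. The innermost peak, from 23573665 to 23574023, stood 322 kb from its neighbour. Strong peaks reached close to this stretch: the 1758 bp peak at 22733920 to 22735677 scored 1077.55, and the stretch from 22856610 to 22873037 held 5 peaks with scores of 572.44, 211.69, 591.42, 53.45 and 718.40.

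Up to the innermost peak, the decline on 2L was milder. The 9 peaks past 22 Mb had scores from 53.65 to 361.66 with a median of 140, and 1 of them reached the list median. Their widths ran from 398 to 1078 bp with a median of 723 bp. The 77 peaks between 19.5 and 22 Mb had a median score of 227 and a median width of 989 bp, and 36 of them reached the list median. The innermost peak, from 22470218 to 22471295, was 1078 bp wide with a score of 247.65.

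On 3R, peaks were numerous up to the start of the arm. The 23 peaks in the first 500 kb of the arm had scores from 50.50 to 917 with a median of 212, and a median width of 971 bp. Of these, 8 reached the list median. The innermost, from 22696 to 23502, had a score of 126.19. Peaks from 254248 to 255359 and from 258668 to 260063 had scores of 916.98 and 897.23, so 2 of the strongest 10% of the list lay in the first 500 kb of the arm. The bin from 1.0 to 1.5 Mb was crowded, with 43 peaks. Of these, 23 reached the list median, against 50.6% of the peaks outside the members. The bin had a median score of 320 and scores of up to 1374. It contained the densest 100 kb of any class, 1400001 to 1500000, whose 12 peaks had a median score of 626 and a median width of 1483 bp. The widest peak of the 3R window, 2653 bp from 1437112 to 1439764 (score 1077.66), lay in it too.

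**Figure D2:**
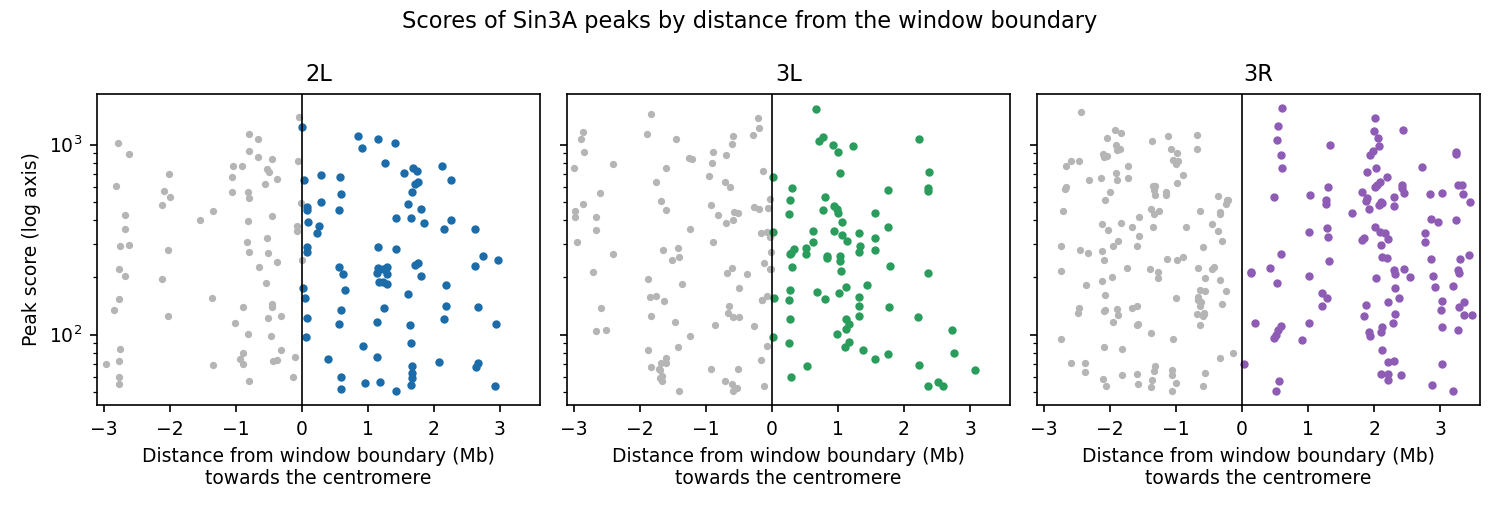
Score of each peak (vertical log axis) by distance from the window boundary in Mb (horizontal axis, positive towards the centromere) on 2L, 3L and 3R. Coloured points are window peaks and grey points are reference peaks within 3 Mb of the boundary. The 5 innermost points of 3L lie between 53.85 and 105.13, whereas points of the innermost 500 kb of 3R reach 917.

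Of the 5 classes, chromosome 4 had the lowest median score. Its 26 scores ran from 52.14 to 431.61, and 14 of them were under 100. Outside the members, 24.6% of peaks scored under the lower quartile of the list, 127. On chromosome 4 there were 16 of 26 (61.5%, interval 40.6 to 79.8), against 77 of 293 window peaks (26.3%, 21.3 to 31.7). The strongest chromosome 4 peak, from 578177 to 578998, was 822 bp wide and ranked 1363 in the list with its score of 431.61. The next, from 1051838 to 1052697, was 860 bp wide with a score of 428.75. Scores of 313.33, 218.05 and 187.95 followed, for peaks from 887458 to 888003, from 230562 to 231003 and from 1234325 to 1234842. Only the first 3 of these 5 reached the list median.

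Peaks were found in each 500 kb of chromosome 4, the first starting at 64256 and the last ending at 1234842. The first 500 kb held 10 peaks with a median score of 84.3, the second 9 with a median of 122 and the stretch past 1.0 Mb 7 with a median of 82.1. The first stretch held none of the 3 peaks that reached the list median; the second held 2 and the last 1.

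Widths on chromosome 4 were small even for such scores. They ran from 229 to 872 bp, and 20 of 26 were under 600 bp. A width under the lower quartile of the list was found for 24.4% of the peaks outside the members, for 23 of 26 peaks on chromosome 4 (88.5%, interval 69.8 to 97.6), for all 4 Het peaks and for 76 of 293 window peaks (25.9%, 21.0 to 31.4). In the reference it was found for 459 of 2173 peaks (21.1%, 19.4 to 22.9). Score and width were positively related in each class of more than 4 peaks: Spearman's rho was 0.733 in the 2L window, 0.712 in the 3L window, 0.747 in the 3R window, 0.595 on chromosome 4 and 0.687 in the reference. These values are descriptions over 86, 82, 125, 26 and 2173 peaks whose score and width share their reads. Width was therefore also compared at equal score.

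**Figure D3:**
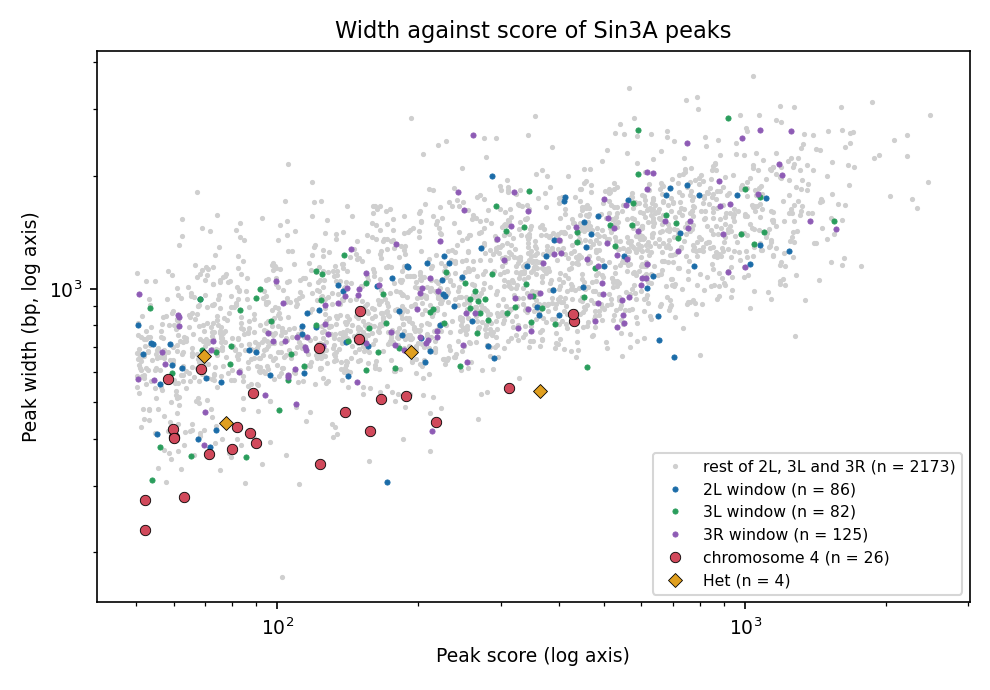
Width of each peak in bp (vertical log axis) against its score (horizontal log axis) for the 5 classes of members (coloured) and the reference (grey). Most of the 26 chromosome 4 peaks, 229 to 872 bp wide, lie low in the reference cloud for their score, and 1 lies above the reference median of its score group. Most window peaks lie within the cloud.

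Reference peaks were divided into 10 groups of equal size by score, and each member's width was ranked within the reference peaks of its group as a percentile, so that 50 is the reference median. The median percentile was 44.6 in the 2L window (interval 33.6 to 59.2), 40.7 in the 3L window (32.1 to 53.5) and 45.6 in the 3R window (37.3 to 54.8). All 3 intervals included 50, the value of the pooled reference. Each window's median was below that of the rest of its arm, but the 2 intervals overlapped on every arm. The reference peaks of 2L had a median percentile of 47.5 (42.4 to 51.8), those of 3L 47.2 (43.5 to 50.7) and those of 3R 53.7 (50.5 to 57.4). In bp, the median width on 3R was 978 in the window (917 to 1069) and 1072.5 in the rest of the arm (1041 to 1114). On 2L these medians were 919.5 (802 to 1054) and 968.5 bp (919 to 1021), and on 3L 931 (861 to 997) and 985 bp (945 to 1044). These intervals overlapped too. On chromosome 4 the median percentile was 4.14 (1.84 to 8.29), and 25 of the 26 peaks were narrower than the median reference peak of their score group. The exception was the widest, 872 bp from 1050745 to 1051616 (score 150.45), at a percentile of 53.5. Of the 26, 19 lay under a percentile of 10, a share of 73.1%, with 11.9% of the window peaks and 9.99% of the reference peaks under it. Put in bp, the 1409 reference peaks whose scores fell in the range of chromosome 4 were 862 bp wide at the median (708 and 1114 at the quartiles), and 39 of them (2.77%) were as narrow as the median chromosome 4 peak or narrower. Repeat content and read coverage at these peaks were not analysed.

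The narrow width was not a matter of the weakest peaks alone. The peaks with scores of 313.33 and 218.05 were 546 and 442 bp wide, at percentiles of 0.917 and 0.461. The 2 strongest, at 822 and 860 bp, had percentiles of 12.4 and 17.5. The 3 narrowest, of 229, 274 and 279 bp, were narrower than every reference peak of their group and had scores of 52.14, 52.24 and 63.16. The narrowest peak of the 2L window, at 20148364 to 20148669, was 306 bp wide (score 171.61) and also narrower than all reference peaks of its group. That of the 3L window, at 23088409 to 23088718, was 310 bp wide (score 53.85, percentile 0.459), and that of the 3R window, at 3469250 to 3469633, was 384 bp wide (score 69.79, percentile 4.13).

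**Figure D4:**
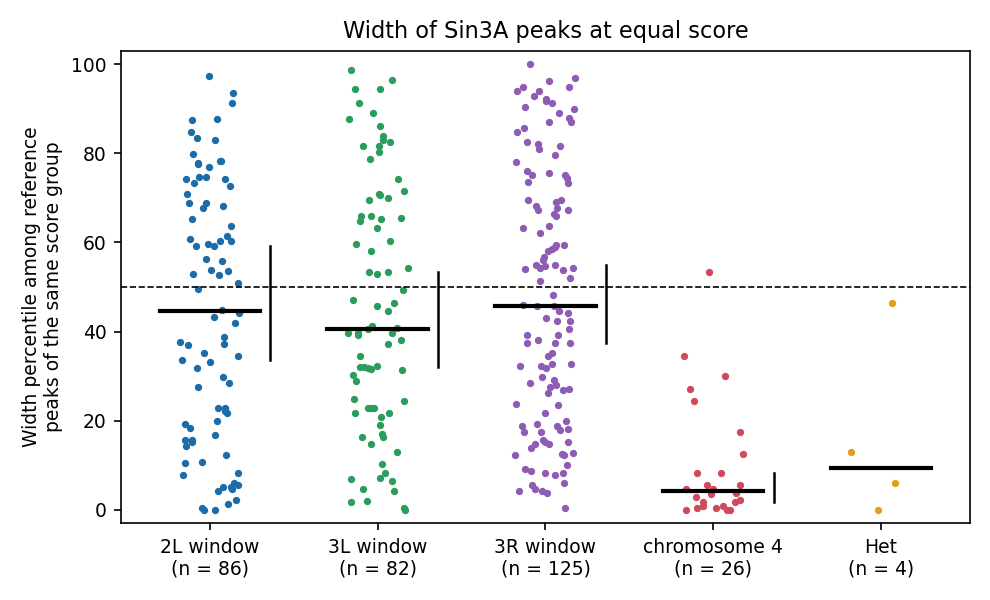
Width percentile of each member within the reference peaks of its score group (vertical axis), by class. Points are peaks, thick bars are medians, thin vertical lines are 95% order-statistic intervals of the median (none for 4 Het peaks), and the dashed line is the reference median of 50. The median of chromosome 4 is 4.14, and those of the windows lie between 40.7 and 45.6.

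The widest members were found in the windows. Among the widest 10% of the list, at least 1688 bp across, were 32 of the 293 window peaks (10.9%, interval 7.59 to 15.1), 10.1% of the peaks outside the members and none on chromosome 4 or on the Het sequences. In the reference, 244 of 2173 peaks were that wide (11.2%, 9.93 to 12.6). The widest of all members, at 2854 bp, lay on 3L at 21508258 to 21511111 and scored 917.01. The widest in the 2L window, 1998 bp from 19576374 to 19578371, had a modest score of 287.48 and a width percentile of 97.2.

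The Het sequences gave 4 single peaks, 1 on each. The peak on 3LHet from 1396649 to 1397183 had the highest score, 363.55, and was 535 bp wide, narrower than every reference peak of its score group. The peak on 2RHet from 471306 to 471986 had a score of 193.18 and was 681 bp wide (percentile 12.9). Those on 2LHet, from 170612 to 171052, and on 3RHet, from 1823651 to 1824313, had scores of 77.68 and 69.83 and widths of 441 and 663 bp. The 3RHet peak, at a percentile of 46.3, was close to the middle of its group. With 4 peaks, no summary of this class has a useful interval.

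The spacing of peaks was compared next. Another peak midpoint within 5 kb was found for 59.8% of the peaks outside the members. In the windows it was found for 173 of 293 peaks (59.0%, interval 53.2 to 64.7) and in the reference for 1334 of 2173 (61.4%, 59.3 to 63.4). By arm the windows had 58.1% on 2L, 56.1% on 3L and 61.6% on 3R. On chromosome 4 the share was 9 of 26 (34.6%, interval 17.2 to 55.7). The median distance to the nearest midpoint was 3.84 kb in the windows, 3.77 kb in the reference and 11.7 kb on chromosome 4.

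Those 9 peaks on chromosome 4 formed 3 tight groups of 3. The first, from 87585 to 90184, had scores of 166.35, 60.16 and 158.00. The second, from 199992 to 201941, had scores of 63.16, 88.52 and 52.24. The third, from 1050745 to 1054082, had scores of 150.45, 428.75 and 58.28 and included the 2 widest peaks of the chromosome. Within the groups the nearest midpoint was at most 1.53 kb away, and for the other 17 peaks it was at least 9.44 kb away, with nothing between. Measured at 2 kb instead of 5 kb, the share of peaks with a neighbour was the same 9 of 26 on chromosome 4. In the reference it was 25.7%, inside the chromosome 4 interval of 17.2 to 55.7, so the lower share did not hold at that distance. At 10 kb the share on chromosome 4 was again the lower one, 11 of 26 (42.3%, interval 23.4 to 63.1) against 80.5% in the reference.

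**Figure D5:**
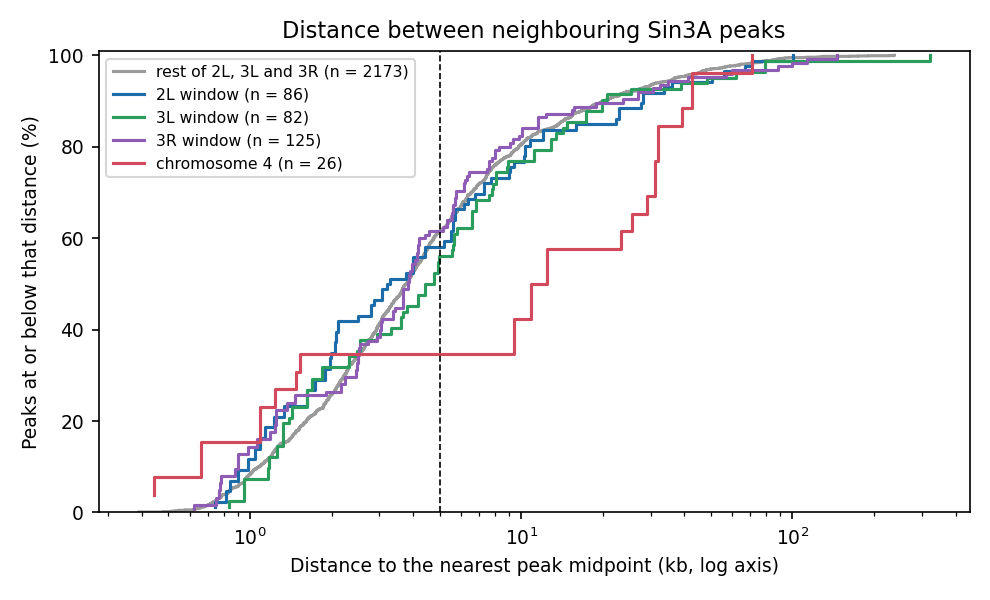
Cumulative share of peaks in percent (vertical axis) by distance to the nearest other peak midpoint in kb (horizontal log axis) for the 3 windows, chromosome 4 and the reference. The dashed line marks 5 kb. The window curves run near the reference, while the chromosome 4 curve is flat from 1.53 to 9.44 kb.

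Runs of 4 or more peaks with midpoints at most 5 kb apart took 23 of the 86 peaks in the 2L window (26.7%, interval 17.8 to 37.4), against 14.3% in the rest of 2L (11.7 to 17.4). In the 3L window they took 5 of 82 (6.10%, interval 2.01 to 13.7), against 13.7% (11.2 to 16.5) in the rest of 3L, and in the 3R window 22 of 125 (17.6%, 11.4 to 25.4), against 14.9% (12.6 to 17.4). Peaks of one run depend on each other by definition, so these intervals are too narrow. The longest runs had 6 peaks each and were mostly weak. That on 2L, from 21155598 to 21169556, had scores from 54.33 to 561.46 with a median of 65.5, and that on 3R, from 1288845 to 1300994, had scores from 57.63 to 675.45 with a median of 110. The single run on 3L, from 21814861 to 21826526, held 5 peaks with a median score of 157. On 2L the densest 100 kb stretches, 19500001 to 19600000 and 21100001 to 21200000, each held 11 peaks, with median scores of 287 and 113. On 3L, 9 peaks each lay in 20700001 to 20800000 and in 21500001 to 21600000.

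Empty stretches were also present. The longest gap between members was 427 kb on 3L, from 22282621 to 22709701. The longest on 2L, at 21758679 to 22121612, measured 363 kb, and the longest on 3R, at 1834552 to 2171029, measured 336 kb. The longest gap in the rest of the arm was 511 kb on 3L, 514 kb on 2L and 367 kb on 3R. Such maxima rise with the number of intervals, which was 81, 85 and 124 in these windows against 692, 613 and 865. Sequence beyond the innermost peak is also left out. The maxima therefore cannot show whether the windows had shorter gaps. On chromosome 4 the longest was 205 kb, from 231004 to 436404. Gaps of at least 100 kb made up 26 of the 290 intervals between neighbours in the windows (8.97%) and 173 of 2170 in the reference (7.97%). Of 96 stretches of 100 kb in the windows, 29 held no peak midpoint (30.2%, interval 21.3 to 40.4), against 154 of 643 in the reference (24.0%, 20.7 to 27.4). These stretches end at the innermost peak of each window, so peak-free sequence beyond it is not counted and the share in the windows is a lower value by construction.

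At the boundaries the last reference peak and the first member were, on 2L, peaks from 19497918 to 19498756 (score 247.67, 839 bp) and from 19507973 to 19509236 (score 1241.87, 1264 bp). On 3L they were peaks from 20490158 to 20491062 (score 272.55, 905 bp) and from 20511859 to 20512679 (score 97.02, 821 bp). On 3R they were peaks from 3636034 to 3636732 (score 79.88, 699 bp) and from 3469250 to 3469633 (score 69.79, 384 bp). The bins on either side of each boundary held 20 and 16 peaks on 2L, 23 and 16 on 3L, and 16 and 7 on 3R.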

How the data were processed

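Per the submitters' processing notes, reads were aligned with Bowtie to BDGP5, and per the file header, peaks were called with MACS. The calling threshold, like the tools' versions, the joining of the 2 replicates and the role of the input, is not given in the sources used here. Starts were read as counting from 0, as in BED, and are printed counting from 1. The authors deposited 1 score with the limits of every peak. The lowest score in the list is 50.05, so binding below that is outside the data.

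The members, the gene-free list of named regions and the alternatives were chosen with earlier results of these data known. Named were all Het peaks, the highest-scoring, widest and narrowest peaks of each class, the innermost peaks, those at the boundaries, the longest gaps and runs and the densest 100 kb. Other positions (the peaks past 23 Mb on 3L and the cluster before them, 2 strong peaks in the first 500 kb of 3R, the groups of 3 on chromosome 4) were chosen after their values were seen. Neighbours were looked for among all peaks of the sequence, and runs within each class. Statistics were tested on simulated peaks. No BDGP5 genome or gene annotation was used here, so no gene or sequence is named. Computations used Python 3.11.15, NumPy 2.4.6, SciPy 1.17.1, pandas 2.3.3 and Matplotlib 3.10.9.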

Additional observations from a re-analysis of the deposited data

How the results depend on the processing

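Of 68 recalculations under other settings, 56 stayed within the interval of the reported value, 10 moved outside it and 2 whose interval had lain clear of no difference changed side. Differences are members minus reference in percentage points. With the boundaries 2 Mb nearer the centromere, the difference in peaks at or above the list median score went from -7.13 to -13.7. That in narrow peaks went from 10.8 to 20.5, and the median width percentile from 39.6 to 33.2. Chromosome 4 then makes up more of the members by construction, and other window peaks are kept. The parts of these 2 in the changes were not separated. Without the 3R window the difference in narrow peaks was 16.8. Without chromosome 4 the difference in score was -4.37, and its interval of -10.1 to 1.48 included 0. That of all members, -7.13, had an interval of -12.6 to -1.53. The difference in narrow peaks without chromosome 4 was 5.81 (0.852 to 11.2). Among peaks with at least the list median score, the members' width percentile turned to 50.5, with an interval of 35.8 to 58.7 that includes 50. Chromosome 4 had 3 peaks left, of 822, 860 and 546 bp, with a width percentile of 11.01. Its density ratio was 0.372 (interval 0.0766 to 1.09). That was taken over the shorter span between the first and last of these 3, which raises the ratio and its interval. The lower quartile of width was taken anew among the kept peaks. All 3 fell under it, a difference in narrow peaks of 79.4, but only the 546 bp peak lay under the 738 bp of the whole list. Counting neighbours within 2 kb turned the difference for all members from -4.34 (interval -9.97 to 1.16) to 4.996 (-0.0232 to 10.4). Both of these intervals included 0. For chromosome 4 it went from -26.8 (-44.2 to -5.72) to 8.89 (-8.51 to 29.9), and the latter interval included 0. Within 10 kb the difference was -4.36 (-9.42 to 0.211) for all members and -38.2 (-57.2 to -17.5) for chromosome 4. Spearman's rho of all members, 0.748, was 0.674 with peaks at most 500 bp apart joined and 0.475 among peaks with at least the list median score. The rank correlation of score and width was not computed for the 3 higher-scoring peaks of chromosome 4. No paired analysis was possible because both replicates are joined in 1 list, and no replicate could be left out for the same reason.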
